A study of Mus musculus with 3 samples.

Results

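The genes that build cholesterol and fatty acids were examined in embryonic fibroblasts of mice with neither Rb1, the gene of pRB, nor Atm, the gene of a kinase that answers to DNA breaks. The set held 36 genes, listed by pathway: 7 genes of the mevalonate steps, 11 of the squalene and late sterol steps, 10 of the fatty acid steps, 5 regulators of the pathway and 3 genes of sterol transport. They were found through the RefSeq accession of each probe, and all 36 had a probe well above background on each of the 3 arrays, out of 19796 genes or accessions with such a probe on at least 1 array. Membership required a probe well above background on at least 1 array, so detection on some array was set by the choice of genes. That choice was also made with earlier results of these arrays known.

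Each of 3 groups was measured on 1 Agilent 1-colour (Cy3) expression array. The Dnmt1 shRNA group was Rb-/-;ATM-/-;DNMT1-depleted, from a vector whose hairpin RNA targets Dnmt1, the enzyme that copies DNA methylation after replication. The ATM vector group, Rb-/-;ATM-/-;ATM-reconstituted, had received a vector expressing ATM, and the empty vector group was Rb-/-;ATM-/- with the vector alone. All 3 came from primary fibroblasts of the C57BL/6J background taken at embryonic day 10.0, so the loss of Rb1 and Atm was shared by the control cells, and no array of wild-type cells was analysed here. Transduced cells were kept in puromycin at 4 ug/ml for 3 days and then in normal medium for 4 days. The promoter in the vectors, the number of embryos and whether cells were pooled are not given in the sources used here. With 1 array a group there was no replicate culture, so no difference has a p-value or a standard error, and both comparisons use the same empty vector array. In such bulk RNA, fewer cells of a type and less RNA per cell cannot be told apart.

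The arrays held 39404 probes, of which 55.0% to 59.6% were well above background, and no spot was saturated. Signals are given as the processed signal divided by the array's 75th percentile (called the scaled signal), and differences as log2 ratios of the scaled signal. Repeat spots of a probe had a median SD of 0.045 to 0.051 on the log2 scale, and ratios of different probes of the same gene had a pooled SD of 0.21 in the Dnmt1 shRNA comparison and 0.34 in the ATM vector comparison. These are technical spreads. The Dnmt1 shRNA and empty vector arrays shared slide 1 and scan 1, whereas the ATM vector array was on slide 2 and scan 2, with a spike-in signal of 33.6 times background against 220 (Dnmt1 shRNA) and 207 (empty vector). In that comparison slide and vector cannot be told apart.

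Processed signals of the Dnmt1 probe were 956 with the Dnmt1 shRNA, 3169 with the ATM vector and 4908 with the empty vector, with log2 ratios to the empty vector of -2.19 and -0.49. The brighter Atm probe read 366, 409 and 430 in the same order of arrays, and a second one was dim on all 3. Rb1 read 782, 460 and 541. Whether the probes of Atm and Rb1 lie in the deleted parts, or that of Atm in the vector, is not known, so they do not check the label of the ATM vector array. All 12 fibroblast markers listed were above background on the Dnmt1 shRNA array, 11 on the ATM vector array (not Fap) and 11 on the empty vector array (not Thy1).

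Cholesterol and fatty acids both start from acetyl-CoA. The mevalonate steps turn it into isoprenoid units, the squalene and late sterol steps close and trim the ring system of cholesterol, and the fatty acid steps extend, desaturate and store acyl chains. Their genes are textbook targets of the SREBP transcription factors, which SCAP escorts from the endoplasmic reticulum when sterols are scarce and INSIG proteins hold back when sterols are plentiful. SREBPs bind weakly alone and are known to act at promoters together with NF-Y and Sp1.

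The promoters of 8 members are shown first, as examples of sequence with and without NF-Y boxes and the sterol response element. They are mevalonate, squalene and late sterol, fatty acid and transport genes, with no regulator. Some of the 8 had a difference past 1.5-fold in a comparison and others had none. RefSeq starts on GRCm38.p6 were available for 28 of the 36 members. Fdps, Fdft1, Sqle, Scd1, Scd2, Fads1, Stard4 and Npc1 were not in the table. Capitals mark matches to CCAAT (the NF-Y box, which reads ATTGG on the other strand) and, in Hmgcs1, to the sterol response element. Each stretch runs 5′ to 3′ on the strand of the gene, within the 250 bases before its start.
Hmgcs1 (HMG-CoA synthase; chr13:119690101-119690350, plus strand): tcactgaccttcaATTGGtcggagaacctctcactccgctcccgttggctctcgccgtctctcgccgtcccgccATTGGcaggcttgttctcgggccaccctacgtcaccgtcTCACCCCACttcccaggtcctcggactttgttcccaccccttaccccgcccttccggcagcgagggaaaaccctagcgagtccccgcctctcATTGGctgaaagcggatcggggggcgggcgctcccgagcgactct
Mvk (mevalonate kinase; chr5:114444139-114444268, plus strand): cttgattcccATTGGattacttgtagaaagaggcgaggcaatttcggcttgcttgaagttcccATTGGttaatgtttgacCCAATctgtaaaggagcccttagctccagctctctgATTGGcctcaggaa
Idi1 (isopentenyl diphosphate isomerase; chr13:8885506-8885605, plus strand): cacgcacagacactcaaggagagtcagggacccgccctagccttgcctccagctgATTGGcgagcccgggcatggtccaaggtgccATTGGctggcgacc
Lss (lanosterol synthase; chr10:76531505-76531604, plus strand): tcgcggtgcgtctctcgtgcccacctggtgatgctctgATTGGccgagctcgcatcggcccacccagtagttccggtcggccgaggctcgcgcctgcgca
Msmo1 (methylsterol monooxygenase; chr8:64733579-64733748, minus strand): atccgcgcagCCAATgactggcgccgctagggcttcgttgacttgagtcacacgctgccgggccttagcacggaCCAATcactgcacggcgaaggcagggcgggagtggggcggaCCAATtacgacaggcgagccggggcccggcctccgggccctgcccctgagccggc
Fasn (fatty acid synthase; chr11:120824548-120824657, minus strand): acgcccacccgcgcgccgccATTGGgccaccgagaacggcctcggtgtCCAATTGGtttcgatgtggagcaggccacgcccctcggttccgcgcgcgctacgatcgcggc
Cyp51 (lanosterol demethylase; chr5:4104698-4104797, minus strand): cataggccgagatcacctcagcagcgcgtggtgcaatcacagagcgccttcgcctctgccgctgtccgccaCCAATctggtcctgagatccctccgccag
Abca1 (cholesterol efflux pump; chr4:53159896-53159995, minus strand): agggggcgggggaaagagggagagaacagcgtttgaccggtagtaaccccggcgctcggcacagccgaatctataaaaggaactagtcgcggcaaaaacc

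In Hmgcs1 the sterol element stood between NF-Y boxes, with 3 such boxes in the 250 bases. Mvk had 4 boxes in the stretch shown and 5 in its 250 bases, Msmo1 and Fasn had 3 each, Idi1 had 2, and Lss and Cyp51 had 1. In Fasn, 2 of the boxes overlap in a single palindrome, which counts once on each strand. The Abca1 stretch held no NF-Y box and no sterol element, but it did hold a Sp1 box (GGGCGG). Sp1 boxes were not marked in any stretch. Abca1 is known as a target of the liver X receptors, which answer to oxidised sterols.

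A gene was counted if any of its annotated starts had a match. The 28 members had 36 starts, and all 27025 genes in the table had 32851. Over the 250 bases before a start and both strands, CCAAT was found in 20 of the 28 members (71.4%) and in 37.5% of all 27025 genes. The Sp1 box GGGCGG was found in 23 members (82.1%) against 35.4% of all genes. The E-box CACGTG, a palindrome, was found in 6 members (21.4%) against 6.86%. The sterol element TCACNCCAC was found in Hmgcs1 alone (3.57% of members) against 1.22% of all genes, and the looser TCACNCNAC, which includes it, in Hmgcs1 and Nsdhl (7.14%) against 2.65%. By step, CCAAT was present in 5 of 6 mevalonate genes, 9 of 9 squalene and late sterol genes, 2 of 7 fatty acid genes, 4 of 5 regulators and 0 of 1 transport gene with a start in the table. All members were above background on these arrays, whereas the genes in the table were not limited to such genes. Shares among genes above background were not computed. A match is a run of letters and not a measured binding site, and the shares were not tested.

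**Figure D1:**
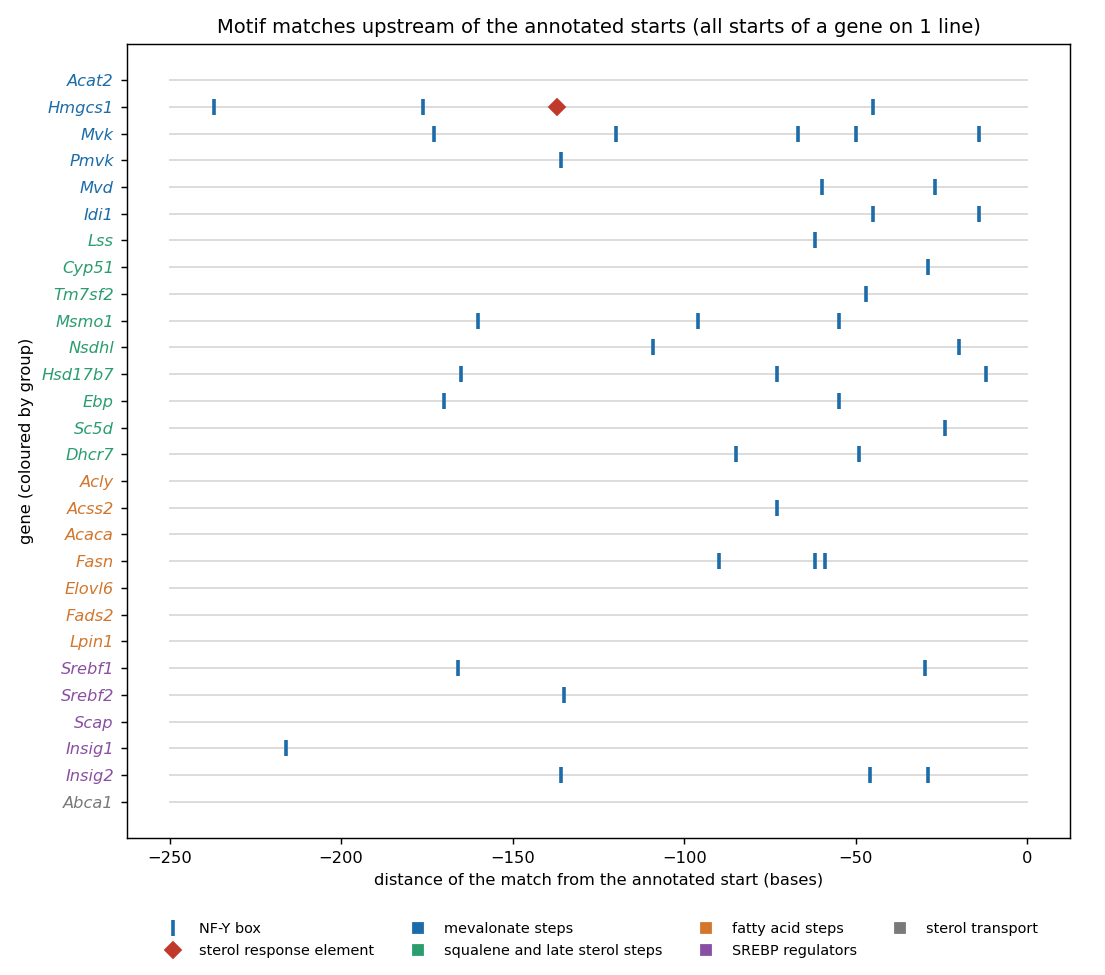
Positions of NF-Y boxes (ticks) and of the strict sterol response element (diamond) in bases from the annotated start (x axis) of the 28 members with a RefSeq start, grouped by step down the y axis. All starts of a gene share the same line. NF-Y boxes are present in all 9 squalene and late sterol genes and in 2 of the 7 fatty acid genes, and the sterol element in Hmgcs1.

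In cells given the Dnmt1 shRNA, the sterol and fatty acid synthesis genes were mostly lower than in cells given the empty vector, by amounts under 2-fold with the 75th percentile scaling. Of the 36 members, 26 had a log2 ratio below 0 (52.0% of all 19366 genes tested did), and the median was -0.30 against -0.02 over all genes. At least 1.5-fold lower were 6 members, Pmvk, Fdps, Lss, Msmo1, Fasn and Elovl6, where 4.75% of all genes were, and 1 member, Lpin1, was at least 1.5-fold higher, where 13.1% were. With this scaling no member was 2-fold lower or 2-fold higher (2.23% and 7.68% of all genes). Over the 17269 genes measured on both arrays, as all 36 members were, 55.9% were below 0, 3.54% were at least 1.5-fold lower and 7.88% at least 1.5-fold higher. The median over the 7 mevalonate genes was -0.50, over the 11 squalene and late sterol genes -0.32 and over the 10 fatty acid genes -0.20. When arrays were centred on their median instead of their 75th percentile, the median of all genes was -0.25 and that of the members -0.54. Median centring shifts every log2 ratio by the same amount, so it could not change the difference between the members and all genes, -0.28. That difference was -0.27 with normexp background correction, -0.25 with quantile normalization, -0.24 with cyclic loess and -0.17 with no filter on dim probes. Median centring put 15 members and 12.1% of all genes at least 1.5-fold lower, and Pmvk, at -1.12, more than 2-fold lower. Cyclic loess put 4 members and 5.09% of all genes at least 1.5-fold lower, with Fdps at -0.55 and Msmo1 at -0.54 short of it. Quantile normalization put 6 members and 6.88% of all genes there. With it Fdps and Msmo1, both at -0.57, fell short, and Mvd and Nsdhl, both at -0.60, were past 1.5-fold. Markers of other cells also differed between these arrays: 6 of 8 epithelial markers were above background on the Dnmt1 shRNA array, against 3 on the empty vector array, with summed signals of 2714 and 275, and Krt8 and Krt18 were not above background on the empty vector array. The macrophage list summed to 6080 with the Dnmt1 shRNA and 3269 with the empty vector. The liver cell list summed to 5496 and 3706, and the fat cell list to 1217 and 1208. Fibroblast genes went both ways, with a median log2 ratio of 0.10. By 1.5-fold, 4 of the 12 stood above the empty vector and 1, Fap (353 against 855), below it. Lum read 61480 against 27740, and Thy1, dim with the empty vector, 1218 against 31.8. The part of these markers in the result was not tested.

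**Figure D2:**
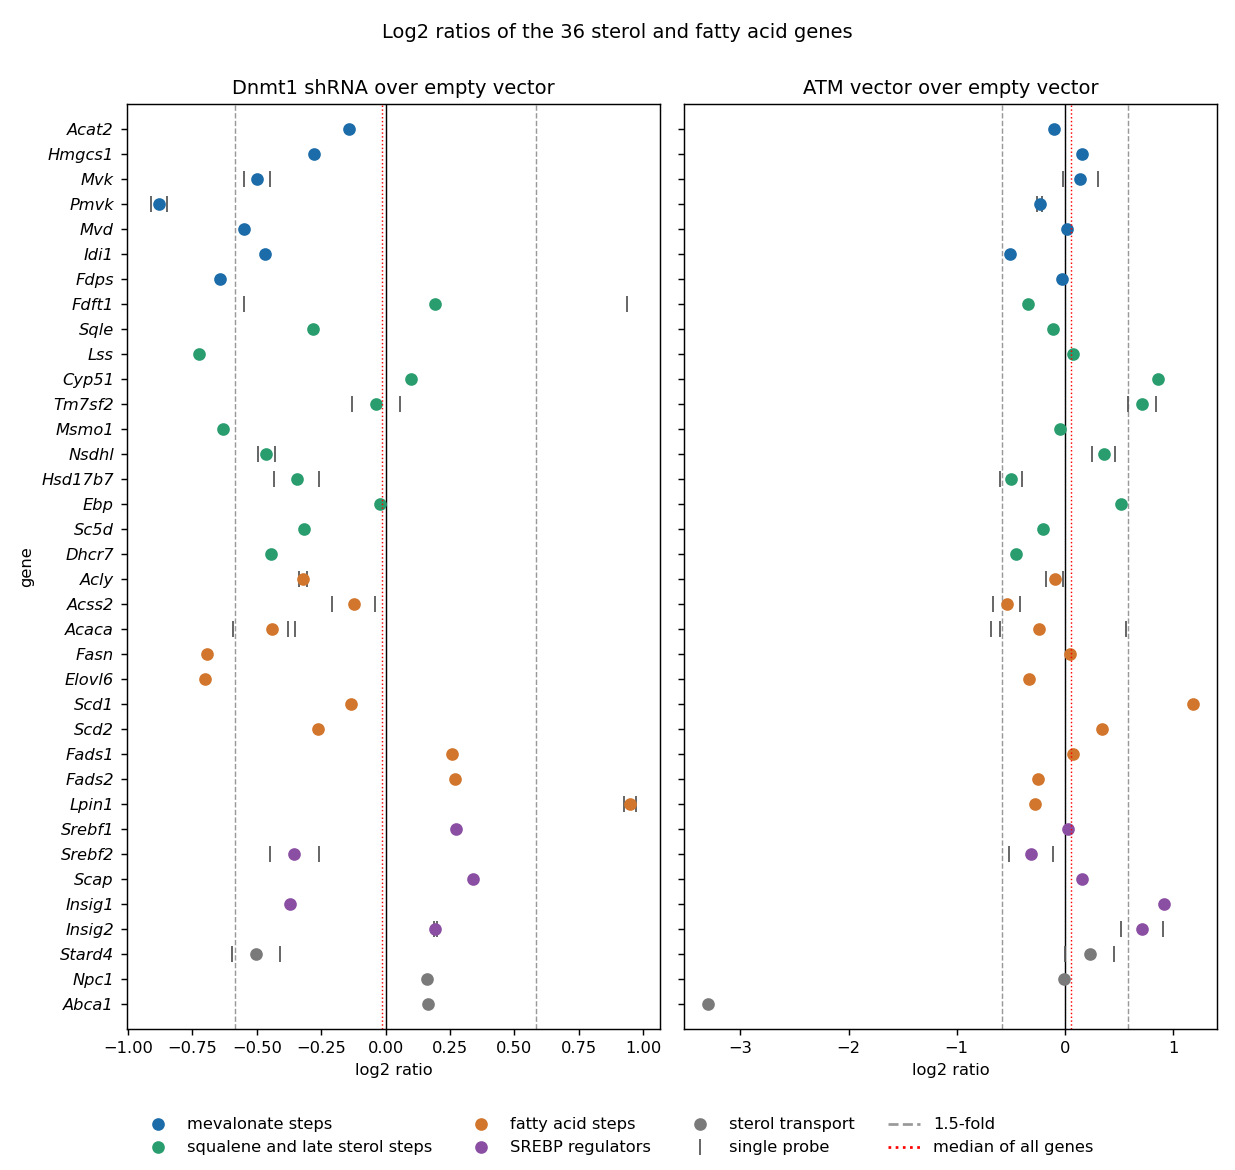
Log2 ratio of each of the 36 members on the Dnmt1 shRNA array and the ATM vector array, each over the shared empty vector array (x axis, a scale of its own in each panel), with members by step down the y axis, single probes as ticks, and lines at 1.5-fold and at the median of all genes. Mevalonate genes all lie left of 0 in the Dnmt1 shRNA comparison, and Abca1 at -3.30 in the ATM vector comparison stands far from the others.

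All 7 mevalonate genes were lower with the Dnmt1 shRNA than with the empty vector, under each of the scalings tried. Pmvk, phosphomevalonate kinase, had a scaled signal of 4.05 on the Dnmt1 shRNA array, 6.34 on the ATM vector array and 7.46 on the empty vector array. It was 1.84-fold lower with the Dnmt1 shRNA (log2 ratio -0.88), and its 2 probes gave -0.91 and -0.85, the lowest value among the members. Fdps, farnesyl diphosphate synthase, which makes the precursor of sterols and prenyl groups, had scaled signals of 13.5, 20.6 and 21.1 on the Dnmt1 shRNA, ATM vector and empty vector arrays. It was 1.56-fold lower with the Dnmt1 shRNA (-0.64), whereas the ATM vector and empty vector arrays were close.

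The kinase and decarboxylase around Pmvk were lower by less. Mvk, mevalonate kinase, had scaled signals of 3.67 with the Dnmt1 shRNA, 5.72 with the ATM vector and 5.19 with the empty vector, which gives a log2 ratio of -0.50 for the Dnmt1 shRNA, with probes at -0.55 and -0.45. Mvd, mevalonate diphosphate decarboxylase, had 0.482, 0.713 and 0.706 on the same arrays and a ratio of -0.55. Both genes were thus low on the Dnmt1 shRNA array only, with the other arrays near each other. Idi1, which interconverts the isoprenoid units, had 4.60 with the Dnmt1 shRNA and 4.46 with the ATM vector, against 6.36 with the empty vector. Its ratios of -0.47 and -0.51 make it the mevalonate gene that was low on both arrays.

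The first steps differed least. Hmgcs1, whose promoter carries the sterol element shown above, had scaled signals of 13.6 on the Dnmt1 shRNA array, 18.3 on the ATM vector array and 16.5 on the empty vector array, a ratio of -0.28 for the Dnmt1 shRNA. Acat2, acetyl-CoA acetyltransferase, had 0.130, 0.134 and 0.144 and a ratio of -0.14, which is smaller than the SD between probes. Of the 7 genes, 6 were lowest on the Dnmt1 shRNA array among the 3 arrays, and Idi1 was lowest on the ATM vector array.

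The 11 squalene and late sterol genes were lower with the Dnmt1 shRNA in 9 cases, and their sizes were more mixed. Lss, which closes squalene epoxide into the sterol ring system, had scaled signals of 0.449 on the Dnmt1 shRNA array, 0.782 on the ATM vector array and 0.742 on the empty vector array, and was 1.65-fold lower with the Dnmt1 shRNA (-0.73). Msmo1, which starts the removal of methyl groups from the ring, had 11.3, 16.9 and 17.5 and was 1.55-fold lower (-0.63). For both genes the Dnmt1 shRNA array was low and the ATM vector and empty vector arrays were close.

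Of the enzymes that follow, Nsdhl, a sterol dehydrogenase, had a ratio of -0.46 with probes at -0.50 and -0.43. Dhcr7, the reductase of the last step, had -0.45, Hsd17b7, a sterol ketoreductase, -0.35, Sc5d, a sterol desaturase, -0.32, and Sqle, squalene epoxidase, -0.28. These 5 lay beyond the SD between probes but short of 1.5-fold. Ebp (sterol isomerase) at -0.02, Tm7sf2 (a sterol reductase) at -0.04 and Cyp51 at 0.10 were near 0, and each changed sign with the scaling or background setting. Cyp51 had scaled signals of 0.982 with the Dnmt1 shRNA, 1.67 with the ATM vector and 0.918 with the empty vector, so its Dnmt1 shRNA and empty vector values were close although Msmo1, the step after the demethylase and its reductase, was lower.

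Fdft1, squalene synthase, was the gene whose probes disagreed most. Its bright probe had scaled signals of 2.17 on the Dnmt1 shRNA array, 2.50 on the ATM vector array and 3.17 on the empty vector array, a ratio of -0.55. Its other probe, at 0.0134, 0.0111 and 0.00699 and above background on the Dnmt1 shRNA array only, gave 0.94, so the mean of 0.19 rests on a signal near background. With the brightest probe alone Fdft1 was at -0.55, beside its neighbours in the pathway.

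Of the 10 fatty acid genes, 7 were below 0 with the Dnmt1 shRNA and 2 were at least 1.5-fold lower, Fasn and Elovl6. Fasn, which assembles palmitate, had scaled signals of 0.296 on the Dnmt1 shRNA array, 0.493 on the ATM vector array and 0.479 on the empty vector array, 1.62-fold lower (-0.70). Elovl6, which elongates palmitate, had 2.01, 2.60 and 3.28 and was 1.63-fold lower (-0.70). Acaca, acetyl-CoA carboxylase, which supplies malonyl-CoA, was at -0.44 with its 3 probes between -0.59 and -0.35. Acly, which makes cytosolic acetyl-CoA from citrate, was at -0.32, and Acss2, which makes it from acetate, at -0.12.

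The desaturase Scd2 was at -0.26 and Scd1 at -0.13, while Fads1 and Fads2, which desaturate polyunsaturated chains, were on the other side at 0.26 and 0.27. Lpin1, a phosphatidate phosphatase of glycerolipid synthesis that also acts in the nucleus, was the 1 member more than 1.5-fold higher. Its brighter probe had scaled signals of 0.489 on the Dnmt1 shRNA array, 0.213 on the ATM vector array and 0.258 on the empty vector array, a ratio of 0.93. Its other probe, at 0.97, was above background on the Dnmt1 shRNA array only, so the 1.93-fold mean of both rests in part on a dim signal. With normexp background correction it was at 0.54, below 1.5-fold.

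**Figure D3:**
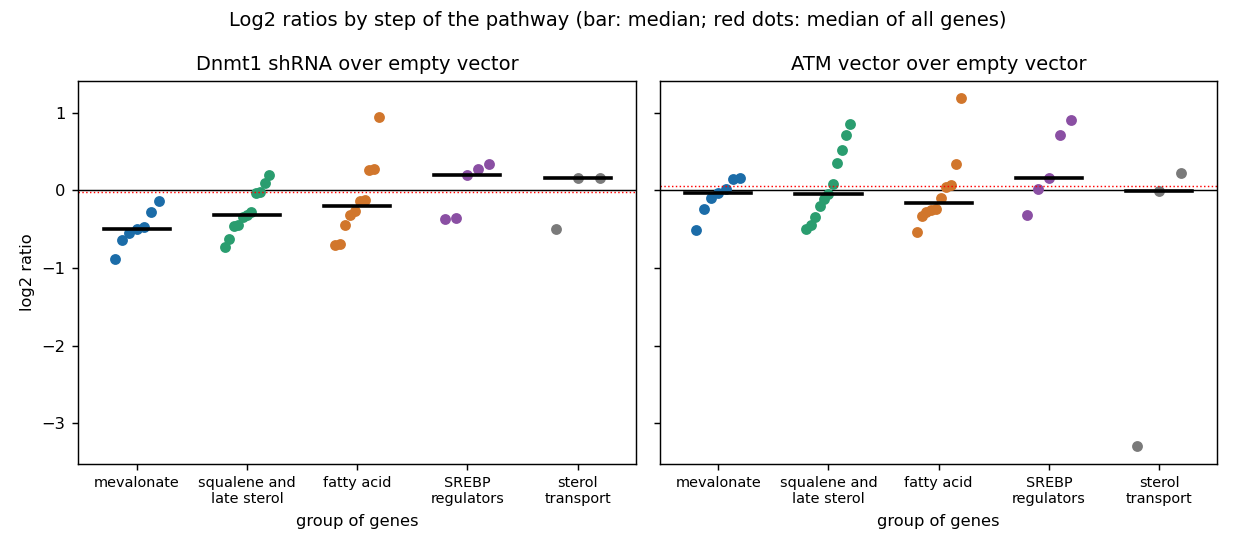
Log2 ratios (y axis) of the members (points) by step (x axis), with the median of each step as a bar and that of all genes as a dotted line, for the Dnmt1 shRNA over the empty vector and the ATM vector over the empty vector. In the Dnmt1 shRNA comparison the medians are -0.50 for the mevalonate, -0.32 for the squalene and late sterol and -0.20 for the fatty acid genes, and in the ATM vector comparison they are -0.03, -0.05 and -0.17.

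The regulators were not lower as a group with the Dnmt1 shRNA. Srebf2, the transcription factor that favours sterol genes, had scaled signals of 0.289 with the Dnmt1 shRNA, 0.298 with the ATM vector and 0.369 with the empty vector, a ratio of -0.35 with probes at -0.45 and -0.26. Srebf1, which favours fatty acid genes, was at 0.27 and Scap at 0.34. Insig1, itself a known SREBP target, was at -0.37, and Insig2, which is not, at 0.19. The median of these 5 genes was 0.19 and 2 were below 0. With median centring Insig2 was at -0.05, so its sign and that of the group's median depend on the scaling.

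Of the transport genes, Stard4, a soluble sterol carrier and known SREBP target, was at -0.50 with probes at -0.60 and -0.41. Npc1, which exports cholesterol from lysosomes, and Abca1 were both at 0.16, and both turned negative with median centring. The level of an mRNA of these genes does not measure how much SREBP was active.

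In cells given the ATM vector, no common direction was seen over the 36 members, and Abca1 and Scd1 had the widest differences, one lower and the other higher. The median was -0.02 against 0.05 over all 18474 genes tested, and 19 members were below 0, where 46.0% of all genes were. At least 1.5-fold higher were 5 members, Cyp51, Tm7sf2, Scd1, Insig1 and Insig2, where 17.2% of all genes were, and 1 member, Abca1, was at least 1.5-fold lower, where 14.4% were. With the brightest probe of each gene, Acaca (-0.69), Acss2 (-0.66) and Hsd17b7 (-0.60) joined Abca1, which makes 4 members against 14.4% of all genes. At 2-fold, Scd1 was higher (8.46% of all genes) and Abca1 lower (7.96%). Over the 16632 genes measured on both arrays, as all 36 members were, 45.4% were below 0. At least 1.5-fold lower were 10.9% of them and 14.4% higher, and at 2-fold 4.38% were lower and 5.69% higher. The shares of the members past these folds are near or under those of both sets of genes, so the counts themselves set the members apart in neither direction. Medians were -0.03 for the mevalonate, -0.05 for the squalene and late sterol and -0.17 for the fatty acid genes, the second of which turned to 0.06 with normexp background correction.

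Abca1, which exports cholesterol to apolipoproteins, had scaled signals of 1.51 on the Dnmt1 shRNA array, 0.137 on the ATM vector array and 1.34 on the empty vector array. It was 9.82-fold lower with the ATM vector (-3.30), on its 1 probe, and the Dnmt1 shRNA and empty vector arrays were close. Ch25h, which makes a hydroxylated sterol that blocks SREBP processing, was 7.83-fold lower with the ATM vector (scaled signal 0.207 against 1.62 with the empty vector). Markers of fat cells differed between the same arrays: Pparg had a processed signal of 157 with the ATM vector against 698 with the empty vector, and Cebpa 157 against 359. The fat cell list summed to 421 with the ATM vector and 1208 with the empty vector, with 2 and 3 of its 10 genes above background on these arrays and with Adipoq, Plin1 and Cidec above background on no array. Other marker lists differed too. The epithelial list summed to 4713 with the ATM vector and 275 with the empty vector, mostly from Krt14 (4491 against 78.3), with 3 of its 8 genes above background on each. The 12 fibroblast markers went both ways. Their median log2 ratio was 0.02, with 6 below 0, 4 at least 1.5-fold lower and 2 at least 1.5-fold higher. The list summed to 1229420 with the ATM vector and 1150050 with the empty vector. Lum read 2733 with the ATM vector against 27740 with the empty vector, and Fap, not above background with the ATM vector, 7.30 against 855. Col1a2 read 442200 against 308700 and Col3a1 169000 against 128400. The part of these markers in the Abca1 value was not tested.

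Scd1, a stearoyl-CoA desaturase, had scaled signals of 2.74 on the Dnmt1 shRNA array, 6.84 on the ATM vector array and 3.01 on the empty vector array, 2.27-fold higher with the ATM vector (1.18). Scd2, its close paralog, had 43.4, 65.8 and 52.0 and was 1.27-fold higher (0.34). The ATM vector array was the highest for both. Since Scd1 and Scd2 are similar in sequence and no probe sequences were used here, signal shared between their probes was not checked.

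Insig1 had scaled signals of 0.135 on the Dnmt1 shRNA array, 0.329 on the ATM vector array and 0.175 on the empty vector array, 1.88-fold higher with the ATM vector (0.91). Insig2 had 1.58, 2.26 and 1.38, 1.64-fold higher (0.71), with probes at 0.52 and 0.90. Both anchors of SCAP were highest on the ATM vector array, while Srebf2 was at -0.31, Srebf1 at 0.02 and Scap at 0.16.

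**Figure D4:**
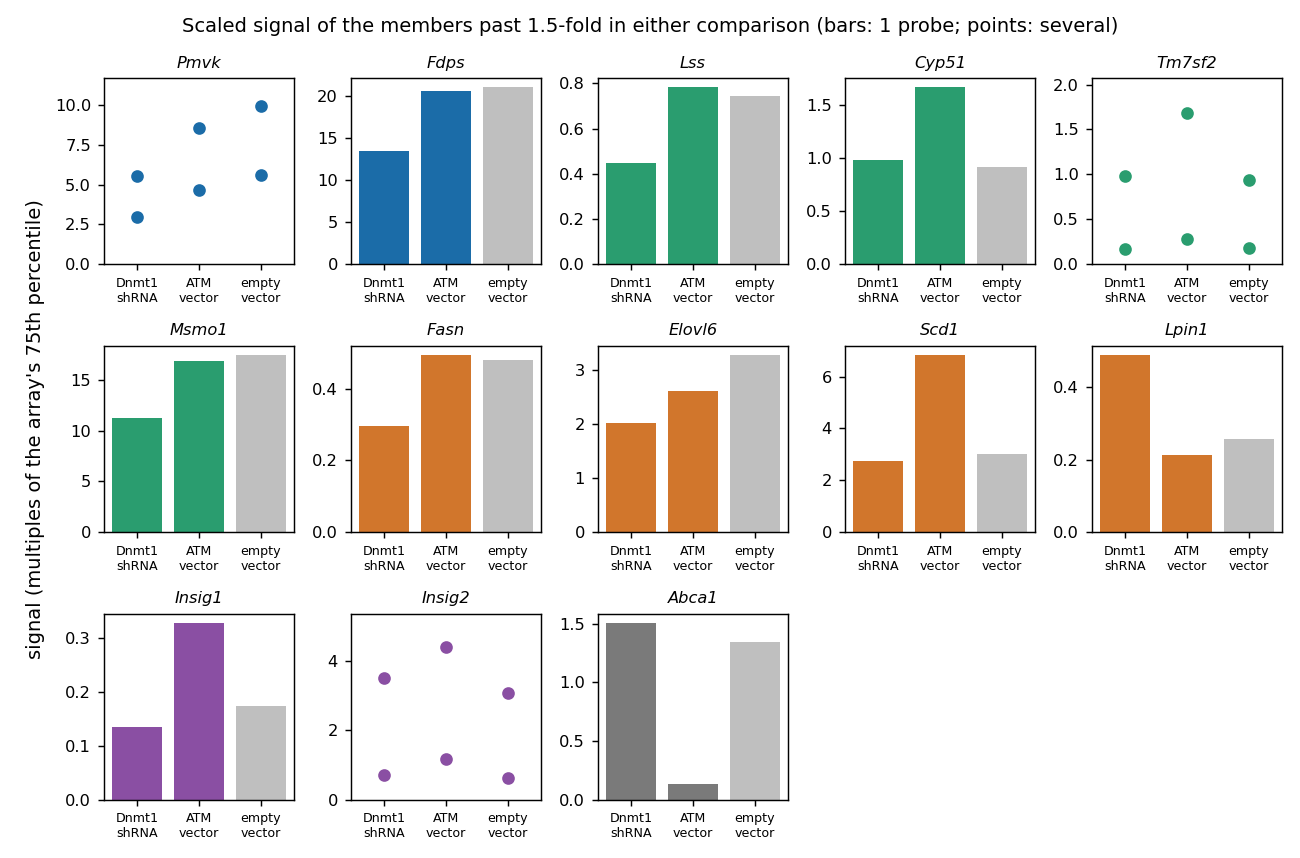
Scaled signal (processed signal over the array's 75th percentile, linear axes from 0) of the members past 1.5-fold in either comparison on the Dnmt1 shRNA, ATM vector and empty vector arrays, 1 array each, as bars for a single probe above background on all arrays and as points where there are several. Pmvk, Fdps, Lss, Msmo1, Fasn and Elovl6 are lowest on the Dnmt1 shRNA array, Scd1 and Insig1 are highest on the ATM vector array, and Abca1 is lowest there.

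The late sterol genes went both ways with the ATM vector. Cyp51 was 1.82-fold higher (0.86), and Tm7sf2, which acts next, had scaled signals of 0.405 on the Dnmt1 shRNA array, 0.681 on the ATM vector array and 0.415 on the empty vector array, 1.64-fold higher (0.71) with probes at 0.84 and 0.58. Ebp was at 0.52, with 9.89, 14.4 and 10.0 on these arrays, and Nsdhl at 0.36. For Cyp51, Tm7sf2 and Ebp, the 3 squalene and late sterol genes closest to 0 with the Dnmt1 shRNA, the ATM vector array was the one that stood apart. This did not hold for all members with small Dnmt1 shRNA ratios. Acat2 (-0.14) and Npc1 (0.16) were at -0.10 and -0.01 with the ATM vector. Hsd17b7 was at -0.50, Dhcr7 at -0.45, the bright Fdft1 probe at -0.34 and Sc5d at -0.21. Sqle, Lss and Msmo1 lay between -0.11 and 0.08, within the SD between probes.

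The mevalonate genes other than Idi1 lay between -0.23 (Pmvk) and 0.16 (Hmgcs1) with the ATM vector, all smaller than the SD between probes of 0.34. Among the fatty acid genes Acss2 was at -0.54, Elovl6 at -0.33, Lpin1 at -0.27 on the 1 probe counted, Fads2 at -0.25, Acly at -0.10, Fasn at 0.04 and Fads1 at 0.07. Acaca had a mean of -0.24, and its bright probe was at -0.69, with the dimmer probes at -0.60 and 0.57. Its mean stayed below 0 under all 9 alternatives, between -0.69 and -0.16. Stard4 was at 0.23 with probes at 0.46 and 0.00233, and Npc1 at -0.01.

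Across the 3 arrays, 22 of the 36 members (61.1%) were lowest on the Dnmt1 shRNA array, 8 (22.2%) on the ATM vector array and 6 (16.7%) on the empty vector array. Over the 16586 genes measured on all 3 arrays the shares were 39.1%, 35.8% and 25.2%. The Dnmt1 shRNA array was highest for 8 members (22.2%), the ATM vector array for 14 (38.9%) and the empty vector array for 14 (38.9%), against 25.9%, 46.9% and 27.2% of all genes.

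Other genes that draw on the same supply of lipids were read for comparison. With the Dnmt1 shRNA, 4.75% of all genes were at least 1.5-fold lower and 13.1% higher. With the ATM vector these shares were 14.4% and 17.2%. In the Dnmt1 shRNA comparison, the 11 genes of the isoprenoid branches (prenyl groups, dolichol and coenzyme Q) had a median of -0.10, with 8 below 0 and 1 at least 1.5-fold lower, Pdss2, a subunit of the enzyme that makes the coenzyme Q tail (-0.59, probes at -0.89 and -0.29). Pdss1, its partner subunit, was at -0.37. The 26 measured genes of lipid supply and glycerolipid synthesis, of 27 listed, had a median of -0.11, with 19 below 0 and none measured on both arrays past 1.5-fold. In that list the widest differences among genes measured on both arrays were Acsl5, an acyl-CoA synthetase, at -0.48 and Elovl7, an elongase, at 0.39. The 21 fatty acid oxidation genes had a median of 0.01, with 0 past 1.5-fold in either direction. Cpt1c, a brain-type member of the carnitine palmitoyltransferase family, was at 0.55 and Acadvl, a dehydrogenase of long acyl chains, at 0.35.

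The 20 measured genes of sterol sensing, storage and efflux, of 22 listed, had a median of 0.06 with the Dnmt1 shRNA, with 0 at least 1.5-fold lower. By their measured ratios 3 were at least 1.5-fold higher, where 13.1% of all genes were. These were Mylip and 2 that were dim with the empty vector, Soat2 and Cyp27a1. Cyp27a1 allowed no fold once its dim signal was treated as a bound. Mylip, the ubiquitin ligase that marks lipoprotein receptors for breakdown and a known target of the liver X receptors, had scaled signals of 0.180 with the Dnmt1 shRNA and 0.0788 with the empty vector, 2.29-fold higher with probes at 0.80 and 1.59. Tmem97, a known SREBP target, was at -0.58. Soat2, which esterifies cholesterol, was not well above background with the empty vector and was at least 11.1-fold higher with the Dnmt1 shRNA and at least 11.3-fold higher with the ATM vector. Soat2, Cyp27a1 and Scd4 were singled out after their values were seen. For such a bound the signal of the bright array was divided by the gene's own dim signal, or by the lowest signal well above background on that array where this was higher. Scd4 was also dim with the empty vector and was at least 1.53-fold higher with the Dnmt1 shRNA and at least 1.79-fold higher with the ATM vector.

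In the ATM vector comparison the isoprenoid genes had a median of 0.05, with Pggt1b, a subunit of a prenyl transferase, at -0.64 and Pdss2 at 0.61. The 26 measured lipid supply and glycerolipid genes had a median of 0.08, with 2 at least 1.5-fold lower and 5 higher. Over all genes 14.4% were lower and 17.2% higher by this fold. Of the 5, Scd4 was dim with the empty vector. Dgat2, the last enzyme of triglyceride synthesis, had scaled signals of 1.68 with the ATM vector and 0.671 with the empty vector, 2.50-fold higher, and Elovl7 had 0.369 and 0.159, 2.32-fold higher. The 19 measured genes of sterol sensing had a median of -0.05 with 2 lower, Ch25h and Lpcat3 (-0.59), a phospholipid remodelling enzyme. The fatty acid oxidation genes had a median of -0.09 with 1 lower, Eci2, an enoyl-CoA isomerase, at -0.70, and 0 higher, the highest being Etfa, an electron carrier subunit, at 0.55.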

How the data were processed

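RNA was measured on 3 Agilent 1-colour arrays, 1 a group, with groups taken from the transfection label. The authors deposited scanner output of Agilent Feature Extraction 10.7.3.1, per the file headers and the submitters' processing notes: an intensity per spot with local background and a spatial trend subtracted, and no scaling between arrays recorded. The deposited series matrix held the same linear intensity values within 0.495%. Other deposited quantities used are the flags of 0 or 1 for background, saturation and outliers, per the file headers.

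Control spots and 167 to 235 outlier spots an array were left out, spots of a probe were averaged as log2, and the array's 75th percentile was subtracted. A probe entered a comparison if either array had it well above background, and the ratios of a gene's probes that entered were averaged. The members had 50 probes (23 members had 1), with a median software error of 10.0% of the signal. Accessions named 26397 of 39404 probes through a RefSeq gene table of GRCm38.p6, and the design was placed on mm9, so no probe coordinates are given. Promoter sequences are from RefSeq, GRCm38.p6.

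The members, the lists and the folds of 1.5 and 2 were chosen with earlier results of these data known. All members are named, with Dnmt1, Atm, Rb1 and the 2 members of each other list that differed most among those measured on both arrays. Rb1 had log2 ratios of 0.70 (Dnmt1 shRNA) and -0.10 (ATM vector), and its probe's place relative to the deletion is not known. Python 3.11.15, numpy 2.4.6, pandas 2.3.3, R 4.3.3 and limma 3.58.1 were used, and the calculation was tested on simulated data. The normexp alternative used the median spot signal, since the files used here hold no mean signal. The number of arrays limits the precision.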

Additional observations from a re-analysis of the deposited data

How the results depend on the processing

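In the Dnmt1 shRNA comparison, centring on the array median moved the median of all genes to -0.25, the members to -0.54, the mevalonate genes to -0.74, the squalene and late sterol genes to -0.55 and the fatty acid genes to -0.44, and put 15 members at least 1.5-fold lower. Among all genes past 1.5-fold, 26.6% were lower with the 75th percentile, 56.4% with the median and 39.4% with quantile normalization. The members' median lay between -0.54 and -0.23 over the 9 alternatives, and 29 of 36 members kept their sign under all of them. With normexp background correction, 0 members were at least 1.5-fold higher. With cyclic loess, 4 members were at least 1.5-fold lower. In the ATM vector comparison, the number at least 1.5-fold lower was 2 with cyclic loess, 2 with no filter on dim probes and 4 with the brightest probe of each gene, against 1, and 28 of 36 members kept their sign. The cause of these moves was not tested. The members' median was 0.00336 with no filter, and the squalene and late sterol median was 0.08 with no filter. Naming probes by gene name and the slide as a block were not run, since the files used here hold no such column and each slide holds other groups. No paired analysis was possible because each group has 1 array.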
